A study of Mus musculus with 3 samples.

Results

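Wnt ligands, their receptors and their inhibitors were described in whole kidney from C57BL/6 mice given acetate by mouth. Members were the probe sets of the array's value table whose single platform gene symbol is a Wnt, Frizzled, Dickkopf, secreted Frizzled-related, R-spondin, LGR or ROR gene, or one of the co-receptors, ligases and intracellular proteins listed with them below. That rule gave 62 of 18193 named genes, read by 127 of 45037 probe sets. The acetate-fed group was 2 kidneys from mice that drank water with 200 mM acetate from 3 weeks of age over 6 weeks. The control group was 1 kidney from a mouse with the same listed start age of 3 weeks, for which no dose or feeding time was recorded here. Acetate is a short-chain fatty acid that gut bacteria make from fibre. All mice were C57BL/6 and conventionally housed, and their sex is not given in the sources used here. Total RNA was labelled with biotin and hybridised to 1 array per mouse, and the comparison asks how the kidney transcriptome differs after acetate. The treatment text is the same on all 3 samples, so group membership rests on the agent named for each.

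Wnt proteins are secreted lipid-modified glycoproteins that bind Frizzled receptors together with the co-receptors LRP5 and LRP6. When they bind, the complex of Axin, APC and kinases that marks beta-catenin for destruction is disabled, and beta-catenin enters the nucleus and works with TCF and LEF factors. R-spondins raise the response by removing the ligases ZNRF3 and RNF43 from Frizzled, and DKK, SFRP, WIF1 and NOTUM proteins damp it outside the cell. In the kidney, Wnt9b and Wnt4 drive nephron formation in the embryo, and the pathway is known to be active again after tubular injury and in fibrosis.

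Most of these genes differed little between the acetate-fed kidneys and the control kidney. Of the 127 probe sets, 92 (72.4%) lay within 1.2-fold of the control in both acetate-fed mice, against 80.9% of all probe sets. A total of 41 member probe sets (32.3%) had exactly the same deposited value on all 3 arrays, against 30.0% of all probe sets. The sources used here do not say why so many values are exactly equal, so an exact tie is not a measurement that a gene did not differ. Only Frzb was at least 1.5-fold higher than the control in both acetate-fed mice, and only Notum and Rspo1 were at least 1.5-fold lower in both. Those counts, 1 higher and 2 lower of 127 probe sets, stand beside 1.06% higher and 0.828% lower over all probe sets, so members passed this size about as often as the array as a whole. By gene, on the probe set with the highest mean, 0 of 62 were higher by that much (1.31% of all genes) and 2 were lower (1.28%). At 1.2-fold, 10 probe sets were higher in both mice (4.91% of all probe sets) and 6 lower (4.39%), or 3 genes higher (5.17%) and 3 lower (5.68%). At 2-fold, 1 probe set, of Frzb, was higher (0.215%) and 0 lower (0.235%), and 0 genes were either higher (0.302%) or lower (0.363%). The plot of differences by role shows 1 probe set for each of the 62 genes, the one with the highest mean over the 3 arrays.

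**Figure D1:**
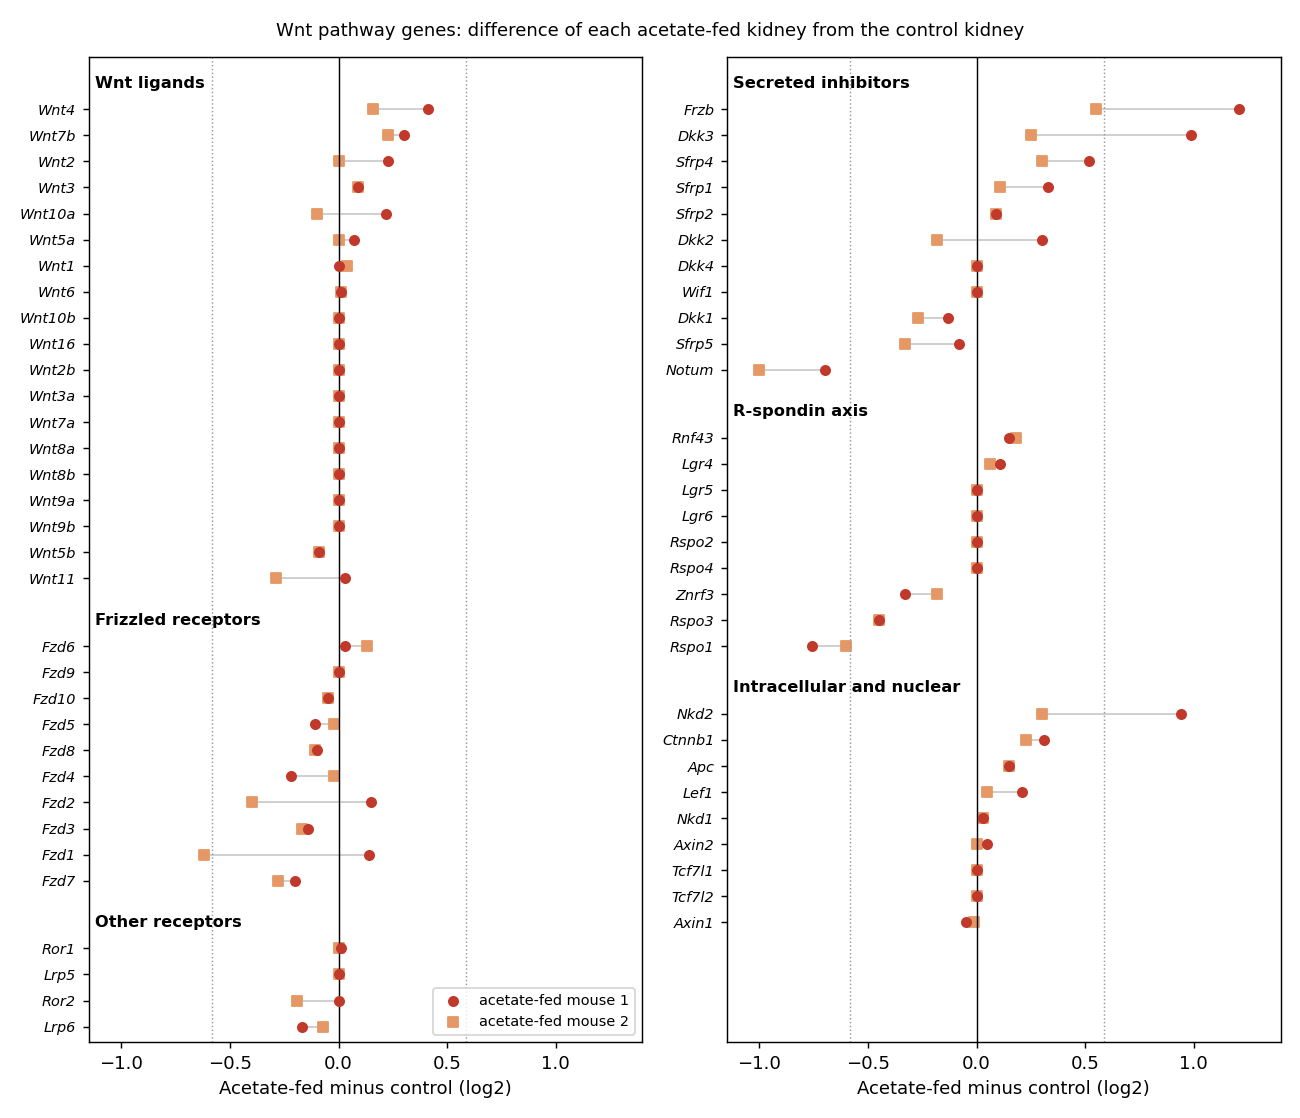
Difference of acetate-fed mouse 1 (circles) and acetate-fed mouse 2 (squares) from the control kidney on the deposited log2 scale, for the probe set with the highest mean of each of 62 genes, grouped by role. Dotted lines mark 1.5-fold. Notum and Rspo1 lie beyond 1.5-fold below the control in both mice, and Frzb, Dkk3 and Nkd2 lie beyond 1.5-fold above it in mouse 1 only.

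All values that follow are deposited log2 expression values or differences between them, acetate-fed minus control, so that 1 unit stands for a 2-fold change. Of the 127 probe sets, 29 were higher in both acetate-fed mice (22.8%, against 22.0% of all probe sets) and 25 were lower in both (19.7%, against 23.0%). Another 14 differed in opposite directions in the 2 mice, and 18 equalled the control in 1 mouse. At gene level, 17 of 62 were higher in both mice and 15 lower in both, where 22.5% of all genes were higher and 27.3% lower. Over the 62 genes the median of the differences was 0.00 in each mouse, as it was over all genes. Both differences share the 1 control array, so whatever was particular to that kidney enters both, and in whole tissue more cells of a type and more RNA per cell cannot be told apart.

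By the mean of both mice, the secreted inhibitors held the widest differences in both directions. Of 11 genes, 5 were higher and 3 lower in both acetate-fed kidneys, where 22.5% of all genes were higher and 27.3% lower. The medians of the differences were 0.09 (mouse 1) and 0.00 (mouse 2). Frzb encodes SFRP3, a secreted protein with a Frizzled-like domain that binds Wnt ligands. Frzb probe set 1448424_at read 6.73 and 6.14 in the acetate-fed kidneys, against 5.12 in the control kidney. It was 3.06-fold higher in mouse 1 and 2.02-fold higher in mouse 2. The other Frzb probe set, 1416658_at, read 7.34 and 6.68, against 6.14 in the control kidney, which is 2.31-fold and 1.46-fold higher. Both probe sets put both acetate-fed kidneys above the control and mouse 1 above mouse 2, and the second lies just below the 1.5-fold line in mouse 2.

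Dkk3, a divergent member of the Dickkopf family that stressed tubular cells are known to secrete, was higher on both of its probe sets. Probe set 1417312_at read 7.64 and 6.90 in the acetate-fed kidneys, against 6.65 in the control, and 1448669_at read 7.10 and 6.58, against 6.19. In mouse 1 these values exceed the control by 1.99-fold and 1.87-fold, and in mouse 2 by 1.19-fold and 1.31-fold, so Dkk3 passed 1.5-fold in mouse 1 only. Sfrp4, a secreted Frizzled-related protein, read 6.96 and 6.74 in the acetate-fed kidneys and 6.44 in the control. Sfrp1, of the same family, differed by 0.33 in mouse 1 and 0.11 in mouse 2 on its probe set 1428136_at. Its 5 probe sets ranged from a mean difference of -0.04 to 0.26, and probe set 1416594_at had the same value, 9.39, on all 3 arrays. Sfrp2 read 6.53 and 6.53 in the acetate-fed kidneys and 6.45 in the control.

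Notum encodes a secreted enzyme that removes the lipid from Wnt proteins and so inactivates them, and its own gene is a known target of beta-catenin. Its 1 probe set read 6.86 and 6.56 in the acetate-fed kidneys, against 7.56 in the control kidney. Notum was 1.63-fold lower in mouse 1 and 2.00-fold lower in mouse 2. Both acetate-fed kidneys lay below the control by more than the 0.30 that separated them from each other. Sfrp5 was lower in both mice by less, with differences of -0.08 and -0.33. Dkk2, an inhibitor of LRP co-receptors, read 8.50 and 8.02 in the acetate-fed kidneys and 8.20 in the control, so the control lay between the mice. Dkk4 and Wif1 had 1 value on all 3 arrays, 3.49 and 2.51, and the 2 probe sets of Dkk1, at 2.72 to 3.16 over all arrays, went in opposite directions.

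**Figure D2:**
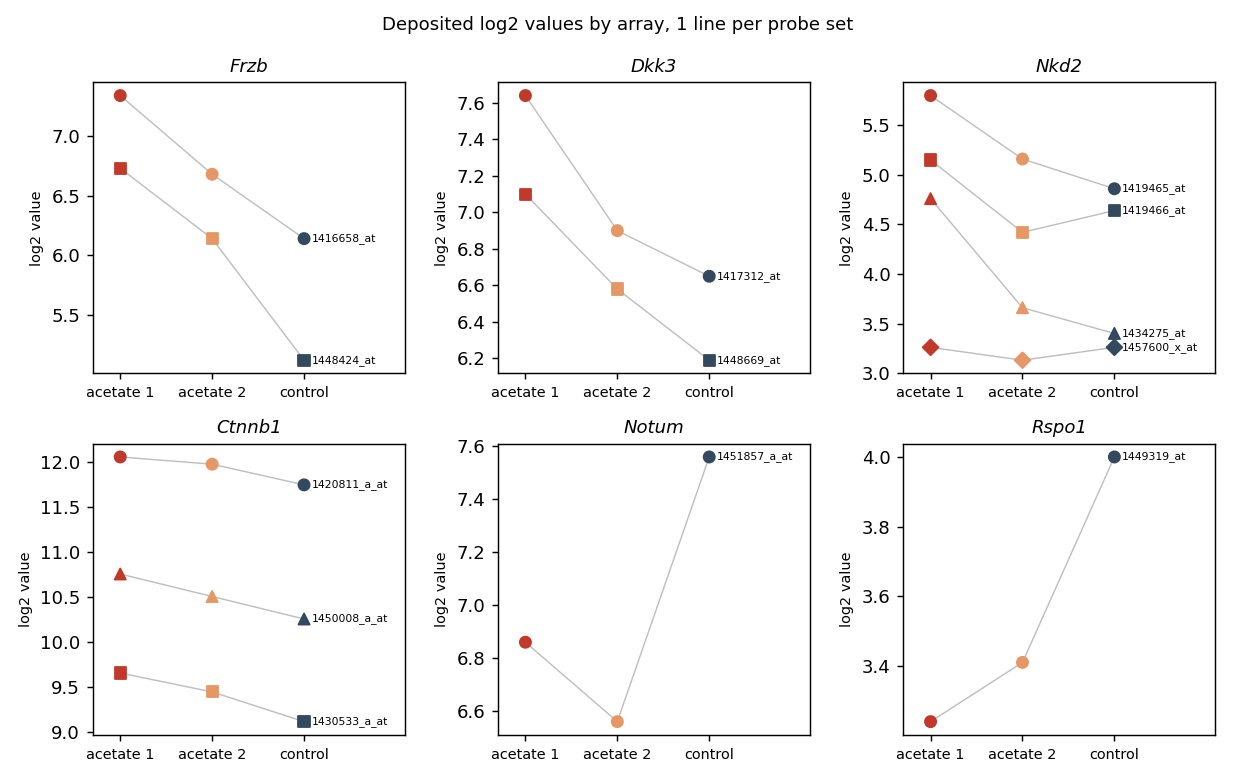
Deposited log2 values of Frzb, Dkk3, Nkd2, Ctnnb1, Notum and Rspo1 on the arrays of acetate-fed mouse 1, acetate-fed mouse 2 and the control, with 1 line per probe set and a scale of its own for each gene. Both probe sets of Frzb and Dkk3 and all 3 of Ctnnb1 step down across mouse 1, mouse 2 and the control, and the control is the highest point for Notum and Rspo1.

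On the probe sets with the highest mean, R-spondin ligands were lower than the control or equal to it, and the LGR receptors stayed within 0.11 of it. Rspo1, which potentiates Wnt signals through LGR receptors, read 3.24 and 3.41 in the acetate-fed kidneys, against 4.00 in the control kidney, and was 1.70-fold lower in mouse 1 and 1.51-fold lower in mouse 2. Rspo3 read 3.61 and 3.61 on probe set 1455607_at, against 4.06 in the control. Both genes lie low on the scale, with means under the 4.21 that the filter for testing required, and their differences were not tested. Rspo4 and probe set 1430104_at of Rspo2 had equal values on all 3 arrays. Lgr4, a receptor for R-spondins, read 10.86 and 10.81 in the acetate-fed kidneys and 10.75 in the control. Lgr5 and Lgr6 had equal values on all 3 arrays on each of their probe sets. Of the ligases that remove Frizzled from the membrane, Znrf3 read 6.50 and 6.64, against 6.83 in the control, and Rnf43 read 4.88 and 4.91, against 4.73. These are opposite directions for a pair of related enzymes, each by at most 1.25-fold.

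Sequence upstream of the annotated start is shown for 2 of the 3 members past 1.5-fold in both mice, Frzb and Rspo1, and for Nkd2, which had the largest gap between the mice. The sequences are from RefSeq, build GRCm38.p6, at chr2:80447397-80447646 on the minus strand for Frzb, chr13:73847632-73847881 on the minus strand for Nkd2 and chr4:124986180-124986400 on the plus strand for Rspo1. Each is read 5′ to 3′ on the gene's strand and ends upstream of the gene's outermost annotated start. The Rspo1 sequence was cut at that start to 221 bases, and those of Frzb and Nkd2 kept 250. Capitals mark CTTTG or its reverse complement CAAAG, the core shared by the TCF and LEF motifs searched.
Frzb: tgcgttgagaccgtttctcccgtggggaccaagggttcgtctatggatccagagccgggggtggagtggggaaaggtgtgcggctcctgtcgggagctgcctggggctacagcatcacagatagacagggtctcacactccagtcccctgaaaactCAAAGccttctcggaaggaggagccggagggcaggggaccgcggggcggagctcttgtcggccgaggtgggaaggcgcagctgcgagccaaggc
Nkd2: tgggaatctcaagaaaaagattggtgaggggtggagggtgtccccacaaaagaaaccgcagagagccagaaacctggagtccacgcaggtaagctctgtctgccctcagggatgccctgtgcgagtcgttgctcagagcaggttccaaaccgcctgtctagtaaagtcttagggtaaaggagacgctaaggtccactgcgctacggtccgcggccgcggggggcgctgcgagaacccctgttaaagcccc
Rspo1: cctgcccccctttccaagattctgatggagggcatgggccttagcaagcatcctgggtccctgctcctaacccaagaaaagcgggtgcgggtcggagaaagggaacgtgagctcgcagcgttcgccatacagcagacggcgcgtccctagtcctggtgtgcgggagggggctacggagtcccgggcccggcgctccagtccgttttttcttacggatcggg
The search used CTTTGNN, with each N either A or T, on both strands. For the 3 sequences it covered the bases printed. For the shares over windows it covered the first 250 bases of each window, not cut at the annotated start. None of the 3 sequences held such a motif, and Frzb held the core once. Of 50 windows of 41 member genes with an entry, 6 held a motif (12.0%), against 14.8% of all 32851 windows, and 23 held the core (46.0%, against 48.6%). The 6 windows belong to Dkk1, Fzd7, Lef1, Tcf7l2, Wnt11 and Wnt5b. A match of letters is a description of the window and not a binding site.

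Among the 19 Wnt ligand genes no member came to 1.5-fold in either mouse. On 9 of them the probe set with the highest mean had equal values on all 3 arrays, 4 were higher in both acetate-fed kidneys and 1 was lower in both. Over all genes, 25.1% had equal values on all 3 arrays, 22.5% were higher in both and 27.3% lower. Wnt7b, made by collecting duct cells and needed for the renal medulla, was higher on both of its probe sets. Its probe set 1420892_at read 7.75 and 7.68 in the acetate-fed kidneys, against 7.44 in the control kidney, and 1420891_at read 5.79 and 5.70, against 5.36. Both probe sets kept the acetate-fed pair closer to each other than to the control, with folds of 1.23 and 1.35 for mouse 1, and of 1.18 and 1.26 for mouse 2. Wnt4, the signal for mesenchymal condensation in the embryonic kidney and a gene induced in fibrotic kidney, read 7.55 and 7.29 on probe set 1450782_at, against 7.13. Its other probe set read 6.48 and 6.38, against 6.38. Wnt9b, the ureteric bud signal upstream of Wnt4, had the same value on all 3 arrays on both of its probe sets.

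Ligands linked to beta-catenin-independent signalling did not share a direction. Wnt5a read 6.27 and 6.20 on probe set 1436791_at in the acetate-fed kidneys and 6.20 in the control. Wnt5b was lower in both acetate-fed kidneys on both probe sets, at 4.75 and 4.81, against 5.21, on 1439373_x_at and at 4.94 and 4.94, against 5.03, on 1422602_a_at. Wnt11, expressed at ureteric bud tips in the embryo, read 4.52 and 4.20, against 4.50. Of the ligands outside that group, Wnt2 read 4.82 and 4.59, against 4.59, and Wnt10a 5.19 and 4.86, against 4.97. None of Wnt11, Wnt2 and Wnt10a had both acetate-fed kidneys on the same side of the control.

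More Frizzled receptor genes were lower than higher, by small amounts. Of 10 genes, 6 lay below the control and 1 above it in both acetate-fed kidneys, where 27.3% of all genes lay below and 22.5% above, and the median of the differences was -0.08 in each mouse. The 6 were Fzd3, Fzd4, Fzd5, Fzd7, Fzd8 and Fzd10, and the 1 higher gene was Fzd6. Fzd7 had the largest of these differences, at 6.59 and 6.51 in the acetate-fed kidneys, against 6.79 in the control kidney, and its other probe set was lower too. Fzd4, the receptor for the vascular ligand Norrin, read 8.99 and 9.20, against 9.21.

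Fzd1 and Fzd2 differed between the acetate-fed mice by more than the size of their mean difference from the control. Fzd1 probe set 1437284_at read 8.62 and 7.85 in the acetate-fed kidneys and 8.47 in the control, so mouse 2 alone was 1.54-fold lower. All 3 Fzd2 probe sets placed mouse 2 lowest, with 1418533_s_at at 6.36 and 5.49 in the acetate-fed kidneys and 6.16 in the control. Of the co-receptors, Lrp5 had the same value, 5.03, on all 3 arrays, and Lrp6 was lower on both probe sets, at 8.86 and 8.96 on 1428500_at, against 9.03. Ror1 and Ror2, receptors for Wnt5a, stayed within 0.19 of the control in both mice on each of their probe sets.

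Inside the cell, Ctnnb1, the gene of beta-catenin, was higher in both acetate-fed kidneys on all 3 of its probe sets. Probe set 1420811_a_at read 12.06 and 11.98 in the acetate-fed kidneys and 11.75 in the control. Probe set 1450008_a_at read 10.76 and 10.51, against 10.26, and 1430533_a_at read 9.66 and 9.45, against 9.12. The folds were 1.24, 1.41 and 1.45 in mouse 1 and 1.17, 1.19 and 1.26 in mouse 2, so every probe set kept the order mouse 1, mouse 2, control. Of 41 member genes with several probe sets, Ctnnb1, Frzb, Dkk3 and Wnt7b were the 4 with every probe set higher in both mice. Fzd7, Lrp6 and Wnt5b were the 3 for which every one was lower. How often this holds over all genes was not counted, so these counts do not set the members apart from the array. RNA level says nothing of the amount of beta-catenin protein, which the pathway controls by degradation.

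Nkd2, an inhibitor that binds Dishevelled, separated the acetate-fed mice most. Its probe set 1434275_at read 4.76 and 3.66 in the acetate-fed kidneys and 3.40 in the control, a gap of 1.10 between the mice. Probe set 1419465_at read 5.80 and 5.16, against 4.86, and 1419466_at read 5.15 and 4.42, against 4.64. On these 3 probe sets mouse 1 was the highest array, while mouse 2 lay above the control on 2 and below it on 1, and the fourth, 1457600_x_at, stayed within 0.12 of the control. Nkd1, its paralogue, was above the control in both mice on 2 of 4 probe sets, most on 1429507_at, at 4.64 and 4.70, against 4.30.

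Members that were also on the list of known beta-catenin targets used here gave no common direction. Most of them are negative feedback inhibitors, while Lef1 is a nuclear partner of beta-catenin and Lgr5 a receptor for R-spondins. The list was chosen and does not hold every known target. Of the 7 members on it, Lef1, Nkd1 and Rnf43 were higher in both acetate-fed kidneys, and Notum and Znrf3 were lower. Axin2 differed in mouse 1 only, and Lgr5 had exactly tied values on all 3 arrays. Axin2, the most widely used readout of the pathway, read 6.00 and 5.95 on probe set 1436845_at in the acetate-fed kidneys and 5.95 in the control, and 2.87 on all 3 arrays on its other probe set. Lef1 read 5.87 and 5.70, against 5.65. The TCF genes Tcf7l1 and Tcf7l2 had equal values on all 3 arrays on their probe sets with the highest mean. Axin1 read 7.85 and 7.89, against 7.90, and Apc read 7.60 and 7.60, against 7.45, on 1420956_at, while its lowest probe set was lower in both mice. Of these target and scaffold genes, only Notum came to 1.5-fold.

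**Figure D3:**
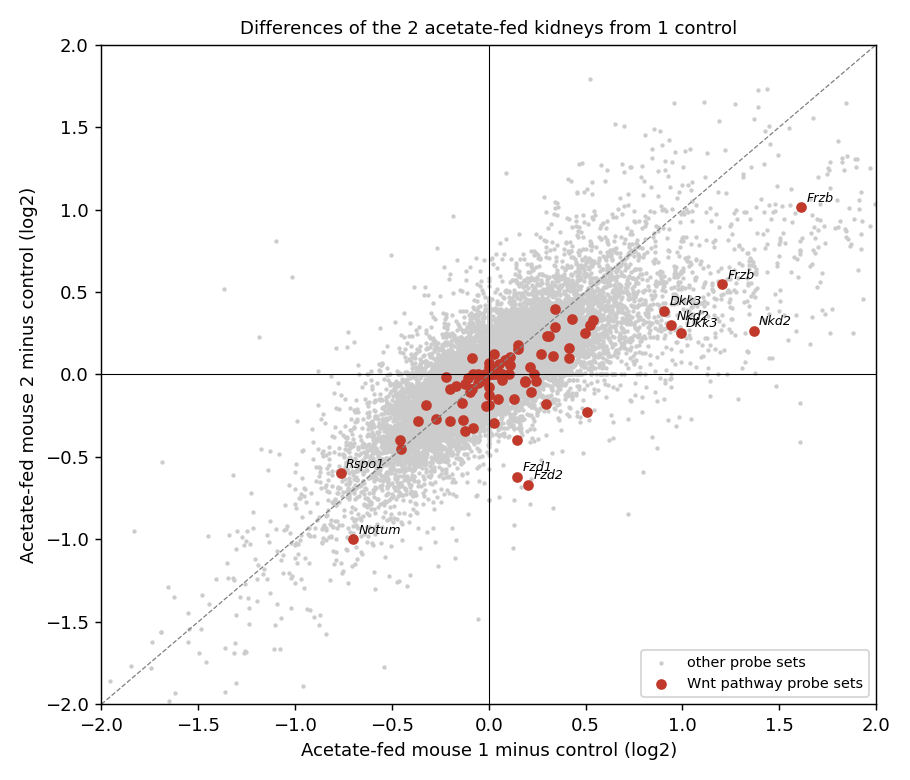
Difference from the control on the log2 scale in acetate-fed mouse 1 (horizontal) and acetate-fed mouse 2 (vertical), with 127 Wnt pathway probe sets in red over all other probe sets in grey. Other probe sets beyond the axes are not drawn, both axes share the control array, and members past 1.5-fold in either mouse are named. Frzb, Dkk3 and Nkd2 lie below the dashed line of equality, towards mouse 1, and Fzd1 and Fzd2 lie past 1.5-fold in mouse 2 only.

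Among the members, and over the array as a whole, mouse 1 was more often far above mouse 2 than below it. On 8 probe sets (6.30%) mouse 1 was at least 1.5-fold above mouse 2, against 1.03% of all probe sets. Mouse 2 was that far above mouse 1 on 0 of 127, against 0.295% of all probe sets, a share at which under 1 member would be counted. The 8 probe sets belong to Nkd2 (3), Frzb (2), Dkk3, Fzd1 and Fzd2. In mouse 1, whatever the value in mouse 2, 6 member probe sets were at least 1.5-fold higher than the control and 2 lower. Over all probe sets, 2.56% were that much higher and 1.31% lower in mouse 1. In mouse 2, whatever the value in mouse 1, 1 was higher (1.57% of all probe sets) and 4 lower (1.34%). Frzb 1448424_at, Notum and Rspo1 passed in both mice and count in both. The difference between the mice rests on 1 array each and was not tested.

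The summed level of connective tissue markers was highest in mouse 1 and lowest in the control, the order that Frzb and Dkk3 had on both of their probe sets and Nkd2 on 2 of 4. All 7 fibroblast and stroma markers were higher in both acetate-fed kidneys, with median differences of 1.15 in mouse 1 and 0.52 in mouse 2 and summed linear values of 9354 and 4253, against 2956 in the control. The collagen gene Col1a1 read 9.54 and 7.75, against 6.74, and the lowest difference in the list was 0.13, for Dcn in mouse 2. All 5 macrophage markers were higher as well, with summed linear values of 5991 and 3194, against 1624. The part of connective tissue or macrophages in the differences of Frzb, Dkk3 and Nkd2 was not tested.

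Other markers were, like Notum and Rspo1, highest in the control kidney. The 3 adipocyte markers measured were lower in both acetate-fed kidneys, with summed linear values of 936 and 1041, against 3127, and Adipoq read 4.38 and 3.87, against 9.98 in the control. All 5 proximal tubule markers were lower too, with median differences of -0.36 and -0.28 and summed linear values of 22160 and 20989, against 26919. The part of either in the differences of Notum, Rspo1 and Rspo3 was not tested. Beside Wnt7b, the 5 collecting duct markers had summed linear values of 7117 and 10426, against 6061. Of these markers 2 were higher in both mice and 3 went in opposite directions, with median differences of -0.05 in mouse 1 and 0.36 in mouse 2. The 4 endothelial and 3 podocyte markers measured were higher in both mice, with medians of at most 0.44, and of the 4 adrenal cortex markers none differed by more than 0.17. The 5 urothelial markers had sums of 482 and 429, against 432, with 1 higher in both mice (Krt5, 2.0-fold and 1.54-fold) and 1 lower in both. The kidney markers Umod, Slc12a1, Slc12a3, Slc34a1, Lrp2 and Aqp2 all read at least 11.43 on every array, as the tissue label says.

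Of a chosen list of 29 genes that beta-catenin is known to induce in other settings, 27 were measured, the 7 pathway genes described above included. In both acetate-fed kidneys 13 were higher and 5 lower, where 22.5% of all genes were higher and 27.3% lower, and 1.5-fold was passed upwards by 2 (1.31% of all genes) and downwards by 1 (1.28%). The differences had medians of 0.15 (mouse 1) and 0.00 (mouse 2), beside 0.00 in both over all genes. Leaving out those 7, 10 of 20 were higher and 3 lower, with medians of 0.22 and 0.00. Cd44, a hyaluronan receptor raised in injured tubules, read 7.12 and 5.21 in the acetate-fed kidneys, against 4.35 in the control kidney. On this probe set, the highest in mean of its 4, Cd44 was 6.82-fold and 1.81-fold higher. With the mean of all 4 it did not pass 1.5-fold in both mice. Birc5, the cell division gene survivin, read 4.94 and 5.14, against 4.00, and was 1.92-fold and 2.20-fold higher. Cd44 and Birc5 were the 2 genes past 1.5-fold, and Notum, described above, was the 1 below it.

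Several other targets read higher in mouse 1 than in mouse 2. Mmp7, a metalloproteinase of injured tubules, read 7.60 and 6.09 in the acetate-fed kidneys, against 5.84, and Fn1, fibronectin, read 10.09 and 8.73, against 8.72. Ccn4, also called WISP1, read 6.61 and 5.89, against 5.38. The matrix proteoglycan gene Vcan read 4.99 and 4.99, against 4.56, and Ccn5 differed from the control by 0.41 and 0.31, so these were nearly as high in mouse 2. Myc read 6.93 and 6.46, against 6.68, and Ccnd1, cyclin D1, read 11.00 and 11.34, against 10.85. Sp5, a transcription factor induced directly by Wnt signals, went the other way at 6.53 and 6.40, against 6.87. Cd44, Mmp7 and Fn1 are also known as injury and matrix genes. Cd44, Mmp7, Ccn4 and Ccn5 had the order of the summed stroma markers given above, while Fn1 differed from the control by only 0.01 in mouse 2. Birc5 and Ccnd1, among others, read highest in mouse 2. The part of beta-catenin in any of these differences was not tested.

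**Figure D4:**
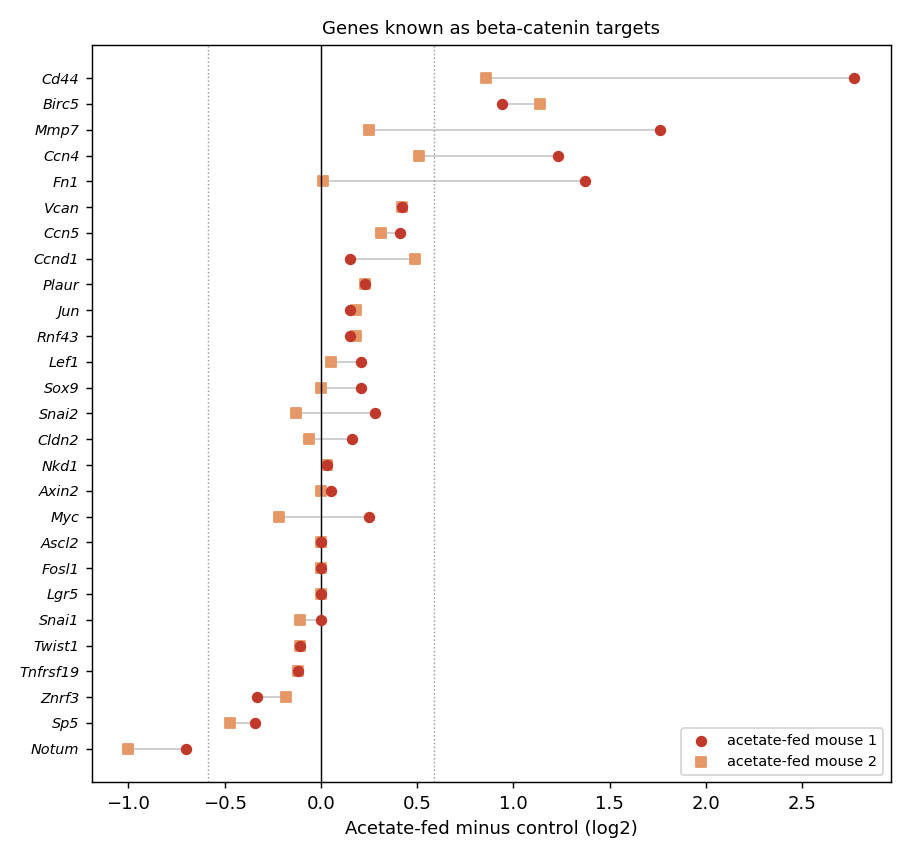
Difference of acetate-fed mouse 1 (circles) and acetate-fed mouse 2 (squares) from the control kidney on the log2 scale for 27 genes known as beta-catenin targets, sorted by the sum of the differences, with dotted lines at 1.5-fold. Cd44, Mmp7, Fn1 and Ccn4 extend to the right in mouse 1, Birc5 passes 1.5-fold in both mice, and Notum is lowest.

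Among 50 of 52 other pathway genes measured, 12 were higher and 13 lower in both acetate-fed kidneys, with medians of 0.00 in each mouse, and 1.5-fold was passed upwards by 1 and downwards by 0. These counts stand beside 22.5% and 27.3% of all genes for direction, and 1.31% and 1.28% for 1.5-fold, so 1 of 50 is near the share over all genes. The 1 was Tle2, a Groucho-family corepressor of TCF factors, at 6.99 and 6.88 in the acetate-fed kidneys, against 6.13 in the control, which is 1.81-fold and 1.67-fold higher. Porcn, the enzyme that adds lipid to Wnt proteins, read 6.46 and 6.46 in the acetate-fed kidneys, against 6.80 in the control, and Wls, their carrier, read 9.46 and 9.38, against 9.45. Among 17 transduction genes, 5 lay above the control and 4 below it in both mice, none by 1.5-fold. Gsk3b, the kinase that marks beta-catenin, read 8.89 and 8.90, against 8.90, and the beta-catenin inhibitor Ctnnbip1 read 7.44 and 7.45, against 7.73. Of 11 extracellular modulators 10 were measured, with 4 higher and 2 lower, none by 1.5-fold.

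The single test the design allows was limma's moderated fit over 27022 probe sets, which takes its error from the acetate-fed pair and assumes that the lone control varies alike. Of the 85 members tested it called 4 higher and 4 lower by Benjamini-Hochberg adjusted p at 0.05, where 5.18% of all tested probe sets were called higher and 5.35% lower. All 8 had exactly equal values in the acetate-fed pair. The calls were Sfrp2, Apc, Tcf7l1 and Nkd1 on 1 probe set each as higher, and Fzd10, Lrp6, Tcf7l2 and Wnt5b on 1 each as lower. Tcf7l2 had the largest of these differences, at 5.11 and 5.11 on 1426639_a_at in the acetate-fed kidneys, against 5.39 in the control (limma adjusted p = 0.0091), and the other 3 probe sets of the gene had equal values on all 3 arrays. Of all 2846 calls 92.3% had such ties, and Frzb, Notum, Dkk3 and Ctnnb1 did not pass on any probe set. The limma adjusted p was 0.49 for Frzb 1448424_at, 0.40 for Notum, 0.70 for Dkk3 1448669_at and 0.35 for Ctnnb1 1420811_a_at.

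With the tied pairs left out of limma's fit, 57 members were tested and 6 passed as higher and 1 as lower, beside 6.55% and 4.97% of all probe sets in that fit. The 6 were both probe sets of Frzb (limma adjusted p = 9.2e-06 and 0.0015) and of Dkk3 (0.012 and 0.030), with 1430533_a_at of Ctnnb1 (0.027) and 1419465_at of Nkd2 (0.034). The 1 lower was Notum (limma adjusted p = 0.0003). In that fit the prior, shared by all probe sets, carried 26.5 degrees of freedom and the pair of mice 1, so a pass reflects the size of the mean difference more than likeness of the 2 mice.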

How the data were processed

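Kidney RNA of 3 mice was measured on 1 Affymetrix array each, and the authors deposited 1 log2 value per probe set, with medians of 4.91 to 4.94 and nearly equal quartiles. The submitters' processing notes name MAS5; its version, summary method and filters were not given in the sources used, and no scanner file was used, so background and saturation are unknown. Precision is limited by the number of arrays. Of 45037 probe sets that are not controls, 34945 had 1 symbol in the platform annotation, and all 127 member probe sets matched the RefSeq table by Entrez identifier.

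Differences are acetate-fed minus control on the deposited log2 values. A gene is represented by its probe set with the highest mean. The size rule was 1.5-fold in both acetate-fed mice. limma 3.58.1 (R 4.3.3; lmFit, eBayes with intensity trend) was fitted to the upper 60% of probe sets by mean over the 3 arrays, a mean of at least 4.21, and adjusted by Benjamini-Hochberg at 0.05; it has 1 residual degree of freedom. Its script was checked on simulated data for the size of a set fold change only. Those data held no exact ties, so the check does not bear on calls with ties. Of the 62 genes, 49 passed that filter, and 85 of the 127 probe sets. Summed linear values add 2 to the power of each value. Tables were made in Python 3.11.15 with pandas 2.3.3.

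Values on all arrays are given for members past 1.5-fold in both mice, members past limma's test, a fixed set of 21 genes and the 5 probe sets with the largest gap between the mice, and for other members chosen after their values were seen. Members, lists and the size rule were chosen with earlier results of these data known. Alternatives were other normalizations, filters, fold limits, ways to summarise a gene, settings of limma, and each acetate-fed mouse left out. Each array is a separate mouse by its label, so the only spread within a group is that between 2 mice. limma's p-values combine it with variance pooled over all probe sets in the fit, and the lone control adds no spread. Some listed genes, among them Tcf7, Kremen2, Plin1 and Cfd, were not analysed here.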

Additional observations from a re-analysis of the deposited data

How the results depend on the processing

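No paired analysis was possible because the groups share fewer than 2 replicate numbers. The members past 1.5-fold in both mice kept their direction with quantile normalization and with median centring. Leaving out a mouse could not reverse them, because they were chosen for the same direction in both. Fzd1 1437284_at and Fzd2 1418533_s_at, past it in mouse 2 only, had mean differences of -0.24 and -0.23, and 0.14 and 0.20 without mouse 2. Median centring moved all differences by 0.02 at most. The count of 1 probe set at least 1.5-fold higher ranged from 1 to 6 with either acetate-fed mouse left out and was 10 at 1.2-fold. The 2 lower ranged from 2 to 4 with a mouse left out, and were 1 with quantile normalization, 0 at 2-fold, 6 at 1.2-fold and 1 in the upper 60% or upper 40% of probe sets, because Rspo1 lies low. At gene level the 0 higher became 0 to 3 with a mouse left out, 1 with the mean of all probe sets of a gene (Frzb) and 3 at 1.2-fold. The 2 lower genes became 1 with quantile normalization and 0 at 2-fold.

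limma's 4 higher and 4 lower member calls became 0 and 0 with quantile normalization and with median centring, which both break ties. They were also 0 and 0 in the upper 40% of probe sets. With no filter 7 were lower, and without tied pairs 1 was lower. At an unadjusted limma p under 0.05, quantile normalization left 12 of 85 members, beside 4303 of all 27022 probe sets. Median centring left 13 of 85, beside 4959 of 27022, and the upper 40% left 7 of 48, beside 3513 of 18015. limma has no test with an acetate-fed mouse left out.

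Median differences by role, as the mean of the 2 mice, stayed within 0.22 of 0. Wnt ligands had 0.00, -0.02 with median centring and 0.04 in the upper 40%. Frizzled receptors had -0.11, -0.10 with quantile normalization, -0.13 with median centring, -0.08 with either mouse left out and -0.05 with the mean of all probe sets. Other receptors had -0.05, -0.01 with that mean and -0.12 in the upper 40%, and -0.03 to 0.00 with a mouse left out. Secreted inhibitors had 0.06, 0.15 in the upper 60% and 0.22 in the upper 40%. The R-spondin axis had 0.00, -0.03 with quantile normalization, -0.02 with median centring and -0.09 in the upper 40%. Intracellular genes had 0.03, 0.01 with quantile normalization, median centring or the upper 40%, 0.05 with the mean of all probe sets and 0.03 to 0.05 with a mouse left out.

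Of other pathway genes, 1 was higher, 1 to 2 with a mouse left out, 0 at 2-fold and 3 at 1.2-fold, and 0 were lower, 0 to 1 with a mouse left out and 6 at 1.2-fold. Of beta-catenin targets, 2 were higher, 2 to 5 with a mouse left out, 1 with the mean of all probe sets, 0 at 2-fold and 5 at 1.2-fold. With that mean Cd44 no longer passed, and Birc5 was the 1 left. Among these targets 1 was lower, 0 at 2-fold and 2 at 1.2-fold. For these the cause was not tested. A difference in 1 control kidney limits every value.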

Other observations

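Genes of planar cell polarity and beta-catenin-independent Wnt signalling went both ways, with 2 of 11 above the control and 3 below it in both acetate-fed kidneys. Over all genes 22.5% lay above and 27.3% below. Ptk7, a Wnt co-receptor of the polarity pathway, read 5.98 and 5.78 in the acetate-fed kidneys, against 5.38 in the control, and was 1.51-fold and 1.32-fold higher. The polarity gene Prickle1 read 6.64 and 5.90, against 6.92, so that mouse 2 was 2.03-fold lower and mouse 1 1.21-fold lower. The polarity cadherins Celsr1 (5.97 and 6.14, against 6.43) and Celsr2 (8.43 and 8.58, against 8.72) were lower in both mice.

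Of the extracellular modulators, the glypican gene Gpc3 read 8.07 and 8.02 in the acetate-fed kidneys, against 7.62 in the control. Sostdc1, a kidney-expressed inhibitor of BMP and Wnt signals, read 10.61 and 10.87, against 10.66. Apcdd1 had the same value, 5.87, on all 3 arrays on its probe set with the highest mean.

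Exact ties set probe sets of 1 gene apart. Of the 4 Tcf7l2 probe sets, 3 had equal values on all 3 arrays, and Sfrp1 1416594_at stood at 9.39 on all arrays while Sfrp1 1460187_at read 8.27 and 7.96 in the acetate-fed kidneys, against 7.86 in the control. On 13 member probe sets the acetate-fed pair was tied at a value other than the control's.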
